A study of Mus musculus with 10 samples.

Results

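The 9 genes described here make up a niche program of CXCL12-abundant reticular cells: Cxcl12, Kitl, Il7, Angpt1, Ptn and Esm1, which encode secreted factors, the receptor gene Lepr, and the transcription factor genes Foxc1 and Ebf3. They were taken by symbol, out of 19938 genes that had a probe set annotated with 1 symbol, and each was measured by a single such probe set. RNA came from osteoblastic lineage cells (OBCs), sorted from collagenase-digested bone of 5 BA mice and 5 control mice, with 1 array per mouse. BA mice are Scl-tTA::TRE-BCR/ABL animals on a C57BL/6 background, in which BCR/ABL is switched on from the Scl promoter's transactivator once doxycycline is removed, and they develop a myeloproliferative neoplasm. Controls were age-matched C57BL/6 mice, and the labels give neither their genotype nor the sex of any mouse. Both groups lost doxycycline at 5 weeks of age and were sampled 5 to 6 weeks later. RNA of 500 to 2300 cells per mouse was amplified before hybridisation. The labels list the antibodies used for sorting but not the gate.

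CXCL12-abundant reticular cells are perivascular stromal cells of the bone marrow that extend long processes around sinusoids and touch many blood-forming cells. They are a main source of the chemokine CXCL12 and of stem cell factor, the product of Kitl, which retain and maintain haematopoietic stem cells, and they carry the leptin receptor. In mouse marrow, Foxc1 and Ebf3 are required to keep up this cell state.

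Levels are the authors' GCRMA values on the log2 scale, so a difference of 1 is a doubling of signal. They are array signals, so a rank of 1 gene among others is a rank of signal and not of RNA amount. On the control arrays the 25% of genes with the highest signal included 7 of the 9 niche genes and 18 of 22 other reticular cell markers. They also included 7 of 10 pericyte and smooth muscle markers, 7 of 9 osteoblast genes and 11 of 12 chondrocyte genes. They included 0 of 14 endothelial and 2 of 12 pan-haematopoietic markers. The X-inactivation RNA Xist was at least 9.81 on 5 arrays (BA replicates 2, 4 and 5, control replicates 4 and 5) and at most 5.08 on the other 5. These classes were read from the data and are not the study's groups. The Y-linked genes Eif2s3y and Uty were at 3.40 to 3.66 and 3.49 to 4.29 on the high-Xist arrays. On the low-Xist arrays they were at 4.92 to 8.51 and 4.67 to 6.66. Kdm5d, also Y-linked, overlapped, at 4.64 to 5.32 on high-Xist and 5.19 to 7.38 on low-Xist arrays. In sorted bulk RNA, fewer cells of a type and less RNA per cell cannot be told apart.

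RefSeq promoter sequences of GRCm38.p6, from 250 bases before to 50 after each gene's start, were found for 7 of the 9 genes. They are printed for Cxcl12 and for the 3 genes whose levels followed it most closely. They lie at chr6:117168285-117168584, plus strand, for Cxcl12, at chr4:101717157-101717456, plus strand, for the first of 2 starts of Lepr, at chr7:137314396-137314695, minus strand, for Ebf3, and at chr13:113209409-113209708, plus strand, for Esm1. Capitals mark a match on either strand to any of 6 motifs searched, which were chosen with results of these data known.
Cxcl12: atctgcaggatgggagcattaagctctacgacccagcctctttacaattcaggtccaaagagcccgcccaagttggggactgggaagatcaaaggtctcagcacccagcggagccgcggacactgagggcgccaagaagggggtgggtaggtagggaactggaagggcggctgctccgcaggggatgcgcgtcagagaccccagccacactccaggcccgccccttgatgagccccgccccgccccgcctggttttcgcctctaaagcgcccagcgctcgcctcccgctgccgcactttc
Lepr: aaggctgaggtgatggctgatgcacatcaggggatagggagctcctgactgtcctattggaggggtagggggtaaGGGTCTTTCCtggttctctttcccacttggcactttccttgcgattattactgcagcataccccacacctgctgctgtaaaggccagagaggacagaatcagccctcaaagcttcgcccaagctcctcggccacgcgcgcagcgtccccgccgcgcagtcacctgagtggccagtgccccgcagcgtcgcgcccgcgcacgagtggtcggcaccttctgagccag
Ebf3: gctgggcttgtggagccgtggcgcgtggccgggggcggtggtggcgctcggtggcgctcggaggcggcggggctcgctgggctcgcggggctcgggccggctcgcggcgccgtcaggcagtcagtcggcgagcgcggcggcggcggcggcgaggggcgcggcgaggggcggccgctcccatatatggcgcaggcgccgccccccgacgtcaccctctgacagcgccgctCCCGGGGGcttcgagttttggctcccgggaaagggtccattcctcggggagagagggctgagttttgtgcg
Esm1: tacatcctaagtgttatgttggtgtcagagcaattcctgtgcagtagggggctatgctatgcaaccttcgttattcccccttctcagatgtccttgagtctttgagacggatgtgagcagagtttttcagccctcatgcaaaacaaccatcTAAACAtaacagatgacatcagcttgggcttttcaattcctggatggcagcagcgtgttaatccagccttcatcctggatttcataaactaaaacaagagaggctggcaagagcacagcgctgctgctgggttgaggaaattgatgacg
The motifs were CCCNNGGG, a core bound by EBF factors, the longer EBF form, which is that core with a T before it and an A after it, the forkhead core TAAACA, the STAT form TTCNNNGAA, the hypoxia response core ACGTG and the NF-kB form, GGG, any 2 bases and then TTTCC. In the order given, 13.7%, 0.913%, 13.4%, 8.33%, 19.7% and 1.61% of 32544 promoters of the same length held them. The capitals in Lepr are the NF-kB form, beginning 175 bases before the start, those in Ebf3 the EBF core, 21 bases before, and those in Esm1 the forkhead core, 99 bases before. The EBF core also occurred once in the Ptn window. No other match to the 6 motifs was found in the windows of the 7 genes. A match describes the letters and is not evidence of binding.

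The comparison of BA with control cells asks how this program stood in the sorted bone cells of diseased mice. Cxcl12, Lepr, Esm1, Ebf3, Ptn, Kitl, Foxc1 and Angpt1 were lower on average in BA cells (8 of 9, against 62.1% of all genes) and Il7 was higher on average, but 0 of the 9 passed the threshold of 0.05 in limma after adjustment over all genes. Over all genes 0.00502% were called, 1 of 19938, and that one was higher in BA cells. At an unadjusted limma p under 0.05 there were 4 of the 9 (Lepr, Esm1, Cxcl12 and Foxc1), each lower, against 5.27% of all genes in that direction and 9.4% in either. The median difference, BA minus control, was -1.01 over the 9 genes and -0.06 over all genes. A mean at least 1 lower in BA cells was found for 5 of the 9, against 0.657% of all genes. Apart from Foxc1 and Il7, the niche genes had an SD over the arrays at percentile 96.4 or higher of all genes. The shares over all genes are therefore shares of genes that mostly varied less. The 9 genes were also chosen with earlier results of these data known. The groups overlapped for each of the 9 genes, while 1.67% of all genes had groups that did not overlap.

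Among the secreted factors, Cxcl12 encodes the chemokine that holds stem cells in the marrow through the receptor CXCR4. Its levels were 10.54, 8.40, 9.83, 9.27 and 7.74 on BA replicates 1 to 5, against 11.80, 11.75, 10.56, 9.84 and 9.81 on control replicates 1 to 5. BA replicate 1 reached the range of the controls, as did BA replicate 3 by a margin of 0.02, and the other 3 BA arrays lay below every control array. The means were 9.16 ± 1.11 in BA cells and 10.75 ± 0.98 in control cells (SD, n = 5 each). The difference was -1.60 ± 0.59 (SE), a level 3.02-fold lower in BA cells, with a 95% interval from -2.90 to -0.29 before any adjustment (adjusted p = 0.484, limma). The exact permutation test of the means, two-sided over all 252 splits, gave p = 0.0556, where the smallest p it can give is 0.00794.

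Kitl, the gene of stem cell factor, varied more among control mice than among BA mice. It stood at 7.31, 6.06, 6.05, 7.29 and 5.28 in BA cells, against 9.59, 9.02, 7.20, 5.82 and 5.34 in control cells. Control replicates 1 and 2 were the 2 highest arrays, and the other control arrays lay within or close to the BA range. The level was 1.99-fold lower in BA cells, with a 95% interval of the log2 difference from -2.82 to 0.82 (adjusted p = 0.652, limma). The difference was -0.45 without control replicate 1, -0.59 without control replicate 2 and -1.51 without control replicate 5.

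Angpt1 encodes angiopoietin-1, a ligand of the receptor tyrosine kinase Tie2. Its levels were 4.56, 5.07, 5.79, 4.74 and 4.79 in BA cells and 6.83, 6.74, 4.48, 3.82 and 4.49 in control cells. The same 2 control arrays as for Kitl were the high ones, and the other 3 control arrays were below every BA array. The difference of -0.28 ± 0.59 (SE, adjusted p = 0.862, limma) turned to 0.11 without control replicate 1 and to 0.09 without control replicate 2, so no direction can be given. Its 95% interval ran from -1.59 to 1.03.

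Ptn encodes pleiotrophin, a heparin-binding growth factor that acts on haematopoietic stem cells. It stood at 9.50, 7.41, 7.46, 8.48 and 6.14 in BA cells, against 9.40, 8.22, 10.82, 7.35 and 8.25 in control cells, with control replicate 3 the highest array and BA replicate 5 the lowest. The difference was -1.01 ± 0.73 (SE, adjusted p = 0.615, limma), and -0.60 without BA replicate 5 or -0.51 without control replicate 3. It was -0.49 with the pan-haematopoietic mean and -0.50 with the endothelial mean as a covariate.

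Il7, which encodes the cytokine that B-cell precursors need, had the smallest spread of the 9 genes over all arrays. It lay between 4.17 and 5.17 in BA cells (median 4.94) and between 4.35 and 4.70 in control cells (median 4.51). The difference was 0.25 ± 0.19 (SE, adjusted p = 0.624, limma). It was 0.15 without BA replicate 5, 0.40 without BA replicate 3 and 0.06 with the pan-haematopoietic mean as a covariate. Its mean signal ranked at percentile 12.4 of all genes and that of Angpt1 at percentile 20.0.

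Esm1 encodes endocan, a secreted proteoglycan best known from endothelial cells. It stood at 8.41, 6.38, 7.47, 7.79 and 6.31 in BA cells, against 9.42, 9.90, 9.09, 8.18 and 7.34 in control cells. The 3 highest arrays were control replicates 1 to 3, and the 2 lowest were BA replicates 2 and 5. The means were 7.27 ± 0.91 in BA cells and 8.79 ± 1.02 in control cells (SD, n = 5 each), a difference of -1.51 ± 0.54 (SE), or 2.86-fold lower (adjusted p = 0.484, limma). Beside it, the mean level of the 14 endothelial markers lay between 5.68 and 5.95 in BA cells and between 5.76 and 6.05 in control cells, and with that mean as a covariate the Esm1 difference was -1.66. The part of endothelial cells in the result was not tested further.

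Lepr, the leptin receptor gene by which these stromal cells are traced in mice, had the largest difference of the 9. It stood at 8.86, 6.92, 7.51, 7.67 and 5.97 in BA cells, against 10.13, 10.63, 9.60, 8.22 and 8.28 in control cells. BA replicate 1 was the 1 BA array inside the control range. The means were 7.39 ± 1.06 in BA cells and 9.37 ± 1.09 in control cells (SD, n = 5 each). The difference was -1.99 ± 0.60 (SE), or 3.96-fold lower, with a 95% interval from -3.32 to -0.65 (adjusted p = 0.454, limma). The exact permutation test, two-sided, gave p = 0.0317 before any adjustment.

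Of the transcription factors, Ebf3 stood at 8.16, 6.41, 7.08, 6.20 and 6.18 on BA replicates 1 to 5, against 8.54, 9.18, 8.37, 6.71 and 7.02 on control replicates 1 to 5. Both groups spanned a wide range, with BA replicate 1 well above the other BA arrays. The difference was -1.16 ± 0.53 (SE, adjusted p = 0.533, limma). Foxc1, a forkhead factor, had the narrowest spread after Il7. It stood at 7.52, 8.07, 7.92, 7.61 and 7.54 in BA cells, against 9.29, 8.13, 8.25, 7.74 and 8.53 in control cells. Control replicate 4 was the single control array below BA arrays, those of replicates 2 and 3. The difference was -0.66 ± 0.26 (SE), a 1.58-fold lower level (adjusted p = 0.506, limma), and the exact permutation test, two-sided, gave p = 0.0397 before any adjustment. Without control replicate 1 the difference was -0.43.

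**Figure D1:**
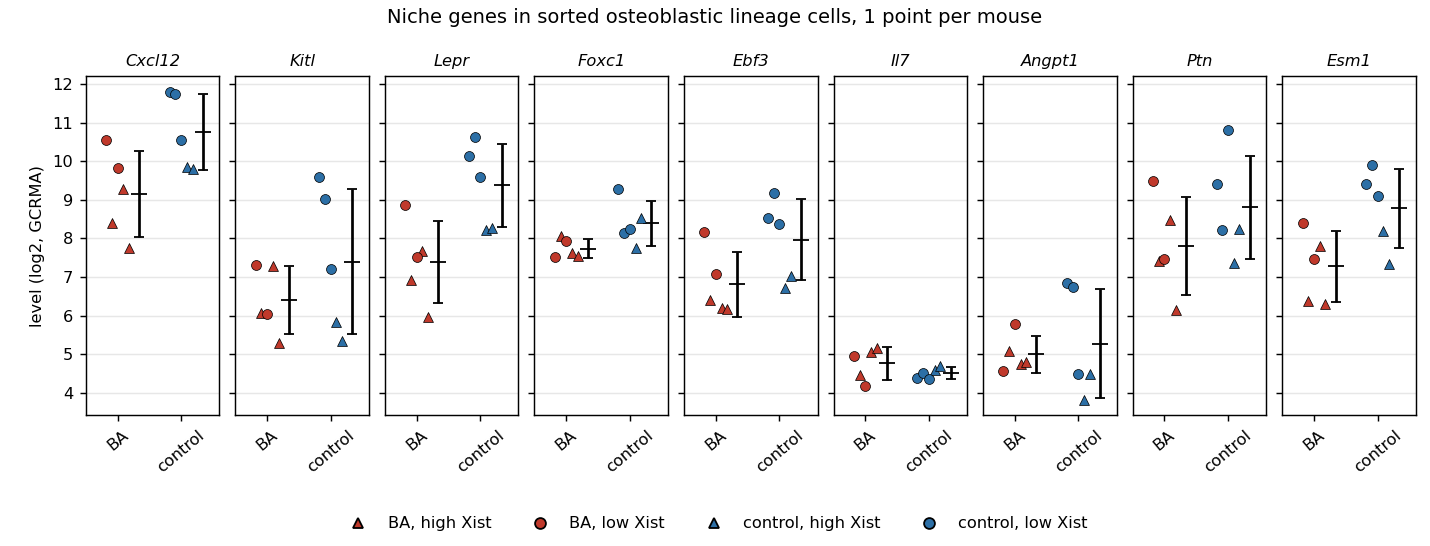
Level of the 9 niche genes (vertical axis, log2 scale) in BA mice (red, left) and control mice (blue, right), with 1 point per mouse, triangles for arrays with high Xist, circles for arrays with low Xist, and bars for the mean ± SD of 5 mice. The groups overlap in every panel, and all genes but Foxc1 and Il7 have circles above triangles on average within each group.

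The same arrays were high or low across the program. BA replicate 5 was the lowest of the 10 arrays for 6 of the 9 genes (Cxcl12, Kitl, Lepr, Ebf3, Ptn and Esm1), and control replicate 1 or 2 was the highest for 7. BA replicate 5 also had the highest mean of the pan-haematopoietic markers, 9.04, against 6.85 to 7.37 on the other BA arrays and 6.05 to 7.22 on the control arrays. Of those 12 markers, 10 were higher on average in BA cells, with a median difference of 0.78, 0 past the threshold and 3 at an unadjusted limma p under 0.05 (9.4% of all genes). Without that array the differences were -1.24 for Cxcl12, -1.63 for Lepr, -1.27 for Esm1 and -0.72 for Kitl. With the pan-haematopoietic level of each array as a covariate they were -1.38, -1.79, -1.37 and -0.99 in the same order. The median over the 9 genes was -0.72 without the array.

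**Figure D2:**
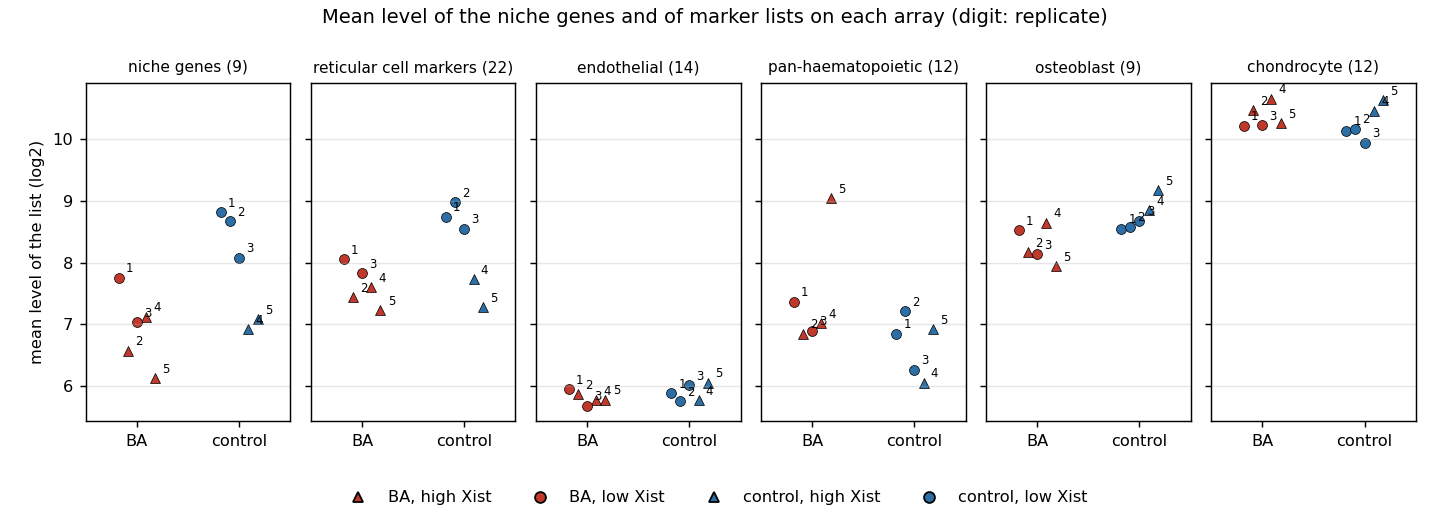
Mean level per array (log2) of the 9 niche genes and of 5 marker lists, with the number of genes in brackets and the replicate number beside each point, BA on the left and control on the right of each panel. BA replicate 5 is lowest for the niche genes at 6.12 and highest for the pan-haematopoietic markers at 9.04, while the endothelial list stays between 5.68 and 6.05 on all arrays.

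Levels were also compared between the Xist classes, where 0 of the 9 genes passed the threshold. Cxcl12 lay between 7.74 and 9.84 on the 5 arrays with high Xist and between 9.83 and 11.80 on the 5 with low Xist. For Ebf3 the classes did not overlap, with high-Xist arrays at 6.18 to 7.02 and low-Xist arrays at 7.08 to 9.18. How many of all genes were likewise apart between the Xist classes was not computed. The separation of Ebf3 can therefore not be set against that of other genes. In a fit with both group and Xist class, the high-Xist arrays differed from the low-Xist arrays by -1.63 ± 0.34 (SE) for Cxcl12, -1.60 ± 0.38 for Lepr, -1.59 ± 0.24 for Ebf3 and -1.41 ± 0.36 for Esm1. None passed over all genes (adjusted p between 0.374 and 0.966, limma), where 0.00502% of all genes did. That share is 1 gene, Xist itself, whose level defined the classes. Kitl had the largest difference of the 9, -1.75 ± 0.67 (SE), with -1.41 ± 0.63 for Ptn and -1.085 ± 0.522 for Angpt1. Foxc1 differed by -0.20 ± 0.27 and Il7 by 0.29 ± 0.18 (SE). For each of these genes the adjusted p was 0.999 (limma). The mean was lower on high-Xist arrays for 8 of the 9 genes, Il7 being the exception, and the share over all genes was not computed. The levels of these 8 genes were positively correlated with one another, so they are not 8 separate observations. BA minus control in the same fit was -1.27 ± 0.34 (SE) for Cxcl12, -1.67 ± 0.38 for Lepr, -1.23 ± 0.36 for Esm1 and -0.84 ± 0.24 for Ebf3 (adjusted p between 0.434 and 0.484, limma), where 0.01% of all genes passed.

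Within the high-Xist arrays (3 BA, 2 control) Cxcl12 differed by -1.36 and Lepr by -1.40, and within the low-Xist arrays (2 BA, 3 control) they differed by -1.19 and -1.94. Esm1 differed by -0.93 and -1.53, and Ebf3 by -0.60 and -1.08, in the same order. Kitl was 0.63 higher in BA cells on the high-Xist arrays and differed by -1.92 on the low-Xist arrays, and Angpt1 by 0.71 and -0.84. The interaction of group and Xist class passed for none of the 9 genes (adjusted p = 0.999 for each, limma). The labels do not give the sex of the mice, and its part in the group differences was not tested beyond these fits.

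The second question was how far the other 8 genes followed Cxcl12 from mouse to mouse. Lepr, Esm1 and Ebf3 followed it most closely, and with Kitl they made up the 4 of 8 with r of at least 0.8. Of all genes, most of which varied less over the arrays, 0.672% had such an r. A limma fit of every gene on the Cxcl12 level over the 10 arrays called 18 of 19937 genes, all positive (0.0903%), and 3 of the 8 niche genes were among them. Of these 3 calls 0 remained without the 2 arrays farthest from the median of Cxcl12 (adjusted p = 0.132 for Lepr, limma), and 1, Lepr, without BA replicate 5, control replicate 1 or control replicate 2. The count over all genes moved with them, to 5 without BA replicate 5, to 2 without control replicate 1, without control replicate 2 or without both farthest arrays, to 8 without BA replicate 2, and to 1 with the Xist level as a covariate. These relations hold the group difference, so r is also given on deviations from the group means, with arrays permuted within their group in an exact test. A group of 5 is too small for a coefficient of its own.

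For Lepr, Pearson's r with Cxcl12 was 0.97 (permutation p = 3e-05, two-sided, 100000 resamples) and Spearman's rho 0.93 (permutation p = 0.0004), over 10 arrays. This was the highest r of all 19937 genes. The Lepr level was higher by 1.09 ± 0.09 (SE) for each unit of Cxcl12 (adjusted p = 0.00302, limma). On deviations from the group means r was 0.95 (exact permutation p = 0.00111), again the highest of all genes. Without BA replicate 5 and control replicate 1, the 2 arrays farthest from the median of Cxcl12, r was 0.95.

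For Esm1, which ranked 4th of all genes, r was 0.95 (permutation p = 0.00014) and rho 0.95 (permutation p = 0.00013), with 0.91 within groups (exact permutation p = 0.00153) and 0.94 without the 2 farthest arrays. The slope was 0.89 ± 0.09 (SE, adjusted p = 0.00929, limma). For Ebf3, which ranked 21st, r was 0.91 (permutation p = 7e-05) and rho 0.94 (permutation p = 0.00022), with 0.87 within groups (exact permutation p = 0.00451) and 0.92 without the 2 farthest arrays. Its slope was 0.76 ± 0.11 (SE, adjusted p = 0.041, limma).

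Kitl had r = 0.82 (permutation p = 0.00423) and rho = 0.73 (permutation p = 0.0207), with 0.83 within groups (exact permutation p = 0.00458) and 0.71 without the 2 farthest arrays, and did not pass over all genes (adjusted p = 0.29, limma). Ptn had r = 0.66 (permutation p = 0.0356) and rho = 0.60 (permutation p = 0.0726), with 0.58 within groups (exact permutation p = 0.104) and 0.42 without the 2 arrays. For Foxc1 r was 0.57 (permutation p = 0.0862), rho 0.48 (permutation p = 0.167), r within groups 0.27 (exact permutation p = 0.49) and r without the 2 arrays 0.10. For Angpt1 r was 0.56 (permutation p = 0.0911) and rho 0.19 (permutation p = 0.606), r within groups was 0.62 (exact permutation p = 0.071), and control replicates 1 and 2 were its highest arrays. Il7 was the 1 gene with a negative coefficient, r = -0.48 (permutation p = 0.161) and rho = -0.50 (permutation p = 0.144), with -0.31 within groups (exact permutation p = 0.444) and -0.08 without the 2 farthest arrays. None of these 4 passed over all genes (adjusted p between 0.537 and 0.731, limma).

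In the fit on group and Cxcl12 together, 0 of the 8 passed over all genes, as did 0% of all genes. The adjusted p was 0.115 for Lepr, 0.22 for Esm1 and 0.393 for Ebf3 (limma), and 5 of the 8 had an unadjusted limma p under 0.05, against 4.49% of all genes. With the Xist level as a covariate in the fit over arrays, the slopes were 1.21 for Lepr (adjusted p = 0.0549, limma), 0.95 for Esm1 (adjusted p = 0.151) and 0.56 for Ebf3 (adjusted p = 0.455), so no call remained. The Xist classes hold 5 arrays each, too few for a coefficient within a class.

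**Figure D3:**
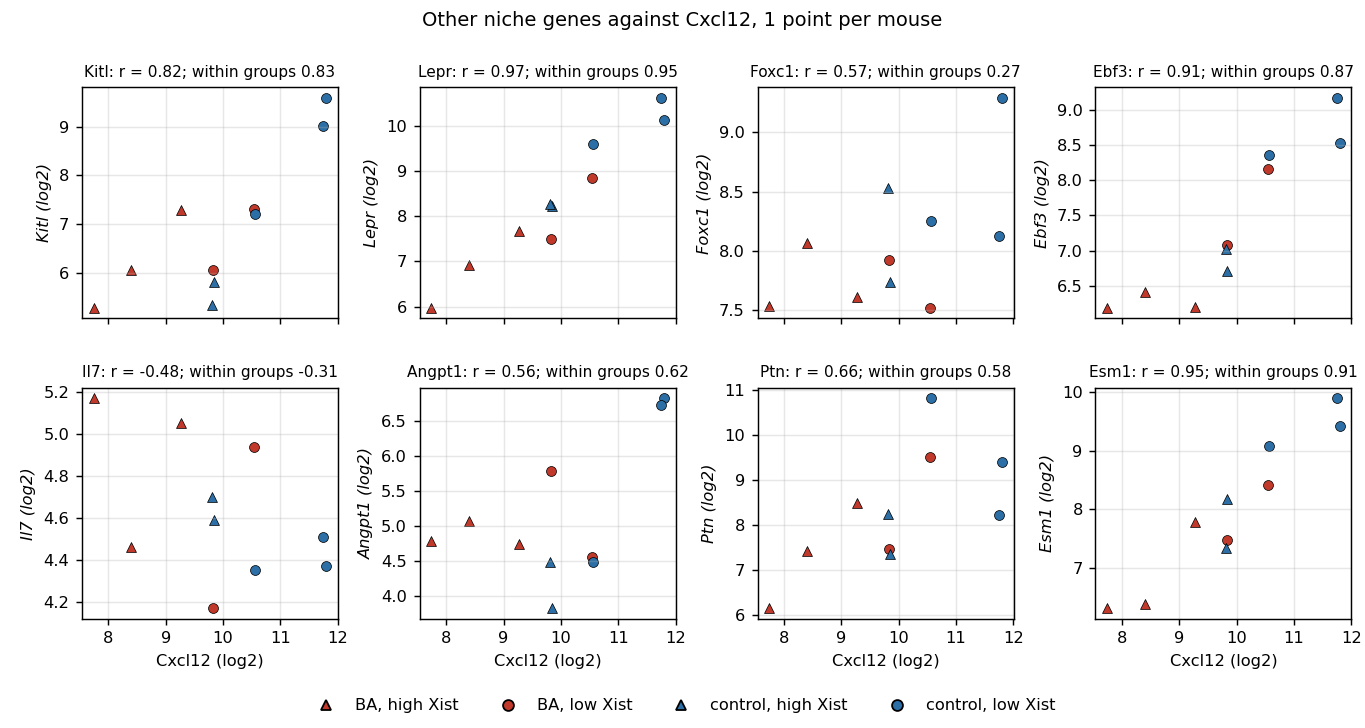
Level of each of the other 8 niche genes (vertical axis, log2) against Cxcl12 (horizontal axis, log2), with 1 point per mouse, BA in red and control in blue, triangles for high and circles for low Xist. Lepr, Esm1 and Ebf3 lie along a line (r of 0.97, 0.95 and 0.91). Il7 has r = -0.48, which was -0.08 without the 2 arrays farthest from the median of Cxcl12.

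Among themselves, the 8 genes other than Il7 had positive coefficients in 28 of 28 pairs, and Il7 had negative coefficients in 8 of 8. The highest was that between Cxcl12 and Lepr. Over all 36 pairs the median r was 0.57, as a description of 10 arrays that share the group and Xist differences.

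The genes whose pattern over the 10 arrays was most like that of Cxcl12, by Pearson's r, were Lepr, Ptprg (0.97), Vcam1 (0.95), Esm1, Serping1 (0.95), Ptprd (0.95), Gdpd2 (0.95) and S1pr3 (0.94). The fit on Cxcl12 measures the same relation on the same arrays, so passing it is not separate support for genes chosen by r. All 8 passed in it (adjusted p between 0.00302 and 0.0114, limma). At most 2 of the 8 could still pass without control replicate 1 or control replicate 2, where 2 genes passed in all. Vcam1 encodes an adhesion molecule that tethers blood-forming cells to stroma, Serping1 the C1 inhibitor of complement, Ptprg and Ptprd receptor tyrosine phosphatases, and S1pr3 a receptor for sphingosine-1-phosphate. Vcam1 averaged 8.13 ± 0.90 in BA cells and 9.28 ± 0.96 in control cells (SD, n = 5 each). By r on deviations from the group means, the first 8 were Lepr, Ptprg, Mme (0.94), Dcbld2 (0.93), Vcam1, Gdpd2, Serping1 and Esm1. Dcbld2 differed from the others in its group means, 6.67 ± 0.51 in BA cells and 6.47 ± 0.43 in control cells (SD, n = 5 each), and its r over all arrays was 0.54.

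The further markers of reticular stromal cells were lower on average in BA cells for 17 of 22, with a median difference of -0.72 and 0 of 22 past the threshold over all genes. At an unadjusted limma p under 0.05 there were 7 of the 22, against 9.4% of all genes. Adipoq, the adipokine gene of adipogenic stroma, differed by -2.13 ± 0.53 (SE), Igfbp5, an insulin-like growth factor binding protein gene, by -1.72 ± 0.59, the matrix gene Tnc by -1.69 ± 0.59 and Dpep1 by -1.12 ± 0.43. In the fit on Cxcl12, 3 of the 22 passed: Vcam1, Igfbp5 (r = 0.94, adjusted p = 0.0114, limma) and the platelet-derived growth factor receptor gene Pdgfrb (r = 0.93, adjusted p = 0.0215), against 0.0903% of all genes. With the Xist level as a covariate 1 gene passed in all. Pdgfrb was outside the rule for named genes and is given because it passed. The 5 markers with a higher mean in BA cells were chosen for naming after their values were seen: Hp (1.40 ± 1.08), Il1rn (0.85 ± 0.48), Cspg4 (0.32 ± 0.19), Snai2 (0.15 ± 0.21) and Nes (0.04 ± 0.15).

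Markers of other bone cell types had differences of both signs. All 10 pericyte and smooth muscle markers were lower on average in BA cells, with a median of -0.62, 0 past the threshold over all genes and 6 at an unadjusted limma p under 0.05 (9.4% of all genes). Their mean per array lay between 6.43 and 7.19 in BA cells and between 7.37 and 8.08 in control cells. Taken singly, 2 of the 10 had groups that did not overlap, against 1.67% of all genes. Myh11, a smooth muscle myosin gene, differed by -1.40 ± 0.35 (SE). Of 9 osteoblast genes 7 were lower on average, with a median of -0.42, 0 past the threshold and 5 at an unadjusted limma p under 0.05 (9.4% of all genes), and the collagen genes Col1a1 and Col1a2 differed by -1.25 ± 0.34 and -1.16 ± 0.31. Of 12 chondrocyte genes 10 were higher on average, with a median of 0.11, and of 14 endothelial genes 11 were lower, with a median of -0.08. The sort antibodies' target genes had 3 of 7 higher and a median of -0.05. Among them Itgav, which encodes CD51, was at 9.30 to 9.77 in BA cells and 8.45 to 9.42 in control cells, a difference of 0.77 ± 0.19 (SE, adjusted p = 0.384, limma). The sort targets Itgam and Ly6g were highest on BA replicate 5, at 7.95 and 7.58. On the other arrays they were at most 5.53 and 6.74. Cd3e, Cd4, Cd5 and Cd8a on BA replicate 5 lay within the range of the other arrays. Of the sex-linked genes 2 of 4 were higher. The part of these cell types in the niche genes' differences was not tested.

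**Figure D4:**
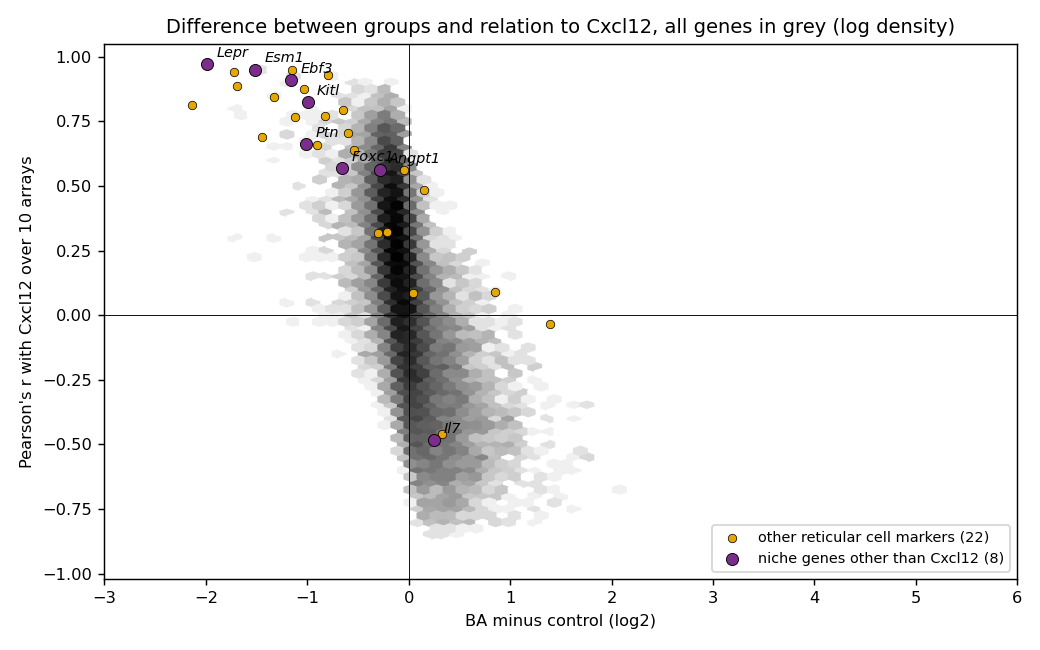
Difference BA minus control (horizontal axis, log2) against Pearson's r with Cxcl12 over 10 arrays (vertical axis) for all genes in grey on a log density, the 8 other niche genes in purple and 22 further reticular cell markers in yellow. Lepr, at -1.99 and 0.97, lies at the upper left, and Il7, at 0.25 and -0.48, on the opposite side. The axes are not independent, since Cxcl12 itself is lower on average in BA cells.

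The receptors and modulators of the secreted factors lay closer to 0. Of 12 measured, 10 were lower on average in BA cells, the median difference was -0.10 and 0 passed in either direction, with 1 of 12 at an unadjusted limma p under 0.05, a share near the 9.4% of all genes. Ptprz1, a receptor of pleiotrophin, differed by -0.93 ± 0.36 (SE), Kit, the receptor of stem cell factor, by -0.50 ± 0.24, Tie1 by -0.18 ± 0.11 and Sdc3, a syndecan that binds pleiotrophin, by 0.44 ± 0.23. None of the 12 passed in the fit on Cxcl12.

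Relatives of the niche genes were mixed, with 5 of 10 lower on average, 5 higher and a median difference of -0.09. None passed the threshold over all genes, and 1 of 10, Ebf1, had an unadjusted limma p under 0.05, a share near the 9.4% of all genes. Ebf1, the relative of Ebf3 that is also needed for B-cell identity, stood at 7.12, 6.69, 7.23, 7.57 and 6.68 in BA cells, against 9.75, 9.25, 8.45, 7.13 and 7.25 in control cells. Control replicates 1 to 3 were above every BA array and control replicates 4 and 5 were not. The difference was -1.31 ± 0.49 (SE, adjusted p = 0.485, limma), and r with Cxcl12 was 0.86 (adjusted p = 0.159, limma). The cytokine genes Il34 and Csf1 differed by -0.62 ± 0.29 and -0.76 ± 0.39, and Ebf4 by -0.21 ± 0.11.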

How the data were processed

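The log2 values of 35557 probe sets on 10 arrays (range 1.21 to 13.7, array medians 5.91 to 6.02) are those the authors deposited. Per the submitters' processing notes they were made with GCRMA, and the log base was inferred from their range. No detection calls were used, so low signals such as those of Il7 and Angpt1 were not told apart from background. The number of arrays limits the precision. Genes were named from the platform annotation, and each was represented by the probe set with 1 symbol and the highest mean over the arrays (19938 genes). The niche genes and the 10 other gene lists were chosen with earlier results of these data known.

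Each gene's BA minus control difference came from lmFit and eBayes of limma 3.58.1 (R 4.3.3), two-sided and without covariates, with Benjamini-Hochberg adjustment over all genes and a threshold of 0.05. The relation to Cxcl12 was fitted in the same way, beside permutation tests (SciPy 1.17.1). Xist classes were split at 7. Besides the niche genes, the text names up to 4 genes of a list with the smallest p and the 8 genes most like Cxcl12 by each measure, leaving out predicted, olfactory, microRNA and small nucleolar RNA genes. The procedure was tested on simulated data. The main fits did not treat mice of the same replicate number as pairs.

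Group differences and relations were computed again under quantile normalization, median centring, a dim-gene filter, averaged probe sets, a block for replicate number, covariates for Xist and pan-haematopoietic levels, and without each array in turn. Trended and robust eBayes, weighted arrays and the endothelial covariate were applied to the group differences alone. The fit with 2 Xist classes was added after the data had been seen. Of promoters, 6 motifs were searched and all are reported.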

Additional observations from a re-analysis of the deposited data

How the results depend on the processing

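No niche gene passed over all genes under any of 21 alternatives to the group fit. The median difference of the 9 genes lay between -1.44 and -0.72, and that of Cxcl12 between -1.94 and -1.24 (adjusted p between 0.339 and 0.797, limma). Angpt1 alone changed direction, to 0.11 without control replicate 1 and 0.09 without control replicate 2 (range -0.65 to 0.11 when 1 array was left out). The number of genes called over the whole array was 1, and became 0 with the replicate block, with only genes above the median level, with the pan-haematopoietic mean or with the endothelial mean as a covariate, and 2 with the Xist level or Xist class in the fit. Leaving out 1 array gave 0 to 13, the highest without BA replicate 4. The count of niche genes related to Cxcl12 over the arrays was 3, and became 0 with the replicate block, with the Xist level as a covariate and without the 2 arrays farthest from the median of Cxcl12, and 1 to 3 when 1 array was left out, the lowest without BA replicate 5 or control replicate 1 or 2. The matching count over all genes, 18, was 0 with the replicate block, 1 with the Xist level, 11 with the pan-haematopoietic mean, 2 without the 2 farthest arrays and 2 to 18 when 1 array was left out, and within groups, where the count was 0, leaving out BA replicate 3 gave 1 and leaving out control replicate 3 gave 5. Ebf3 lost its call in 14 of 18 alternatives (adjusted p between 0.0282 and 0.455 over all 18, limma), Esm1 in 6 and Lepr in 3, and each kept a positive slope. Within groups the count was 0, and 0 to 1 when 1 array was left out, Lepr passing without BA replicate 3 (adjusted p = 0.0469, limma) or control replicate 3 (adjusted p = 0.041). The slope within groups turned for Foxc1 to -0.0842 with the replicate block and, when 1 array was left out, ranged from -0.0234 (without control replicate 1) to 0.214, and for Il7 to 0.0714 with the replicate block and 0.15 with the Xist level. Fits that leave out arrays or add terms have fewer degrees of freedom, counts went both down and up, and the cause of these changes was not tested. Deviations of same-numbered mice correlated by r between -0.10 and 0.11 across genes, and 1 of 5 matched its own number best. Such weak correlations cannot exclude a pairing. Replicates 1 and 3 had low Xist in both groups and replicates 4 and 5 high Xist in both, while replicate 2 was high in BA and low in control. With the filter on dim genes, Il7 and Angpt1 had no value.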

Other observations

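Cartilage genes tended to be somewhat lower on the arrays where Cxcl12 was high, as a description of 10 arrays. Of 12 chondrocyte genes 10 had a negative r with Cxcl12 over the 10 arrays, with a median of -0.48, against 0.11 over all genes. Sox9, the regulator of cartilage, had r = -0.75 and Matn3, a matrilin of cartilage matrix, r = -0.74. Acan, the aggrecan gene, named after its value was seen, had r = -0.85. On deviations from the group means r was -0.59 for Sox9 and -0.62 for Matn3. None of the 12 passed in the fit on Cxcl12. Over the 10 arrays Acan spanned 0.40, Sox9 0.45 and Matn3 1.56 on the log2 scale. On high-Xist against low-Xist arrays Acan averaged 11.46 and 11.24, Sox9 11.47 and 11.24, and Matn3 10.49 and 9.71. The part of the Xist classes in these coefficients was not tested. Sox9 averaged 11.45 ± 0.07 in BA cells and 11.26 ± 0.20 in control cells (SD, n = 5 each).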
